A study of Rattus norvegicus with 14 samples.

Results

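The transcriptome of the thoracic aorta was described in the 6 samples labelled Control, out of 14 samples in the series. The members were chosen by that treatment label alone. All samples came from Sprague-Dawley rats, and the other 8 were from animals with chronic renal failure induced by adenine (A-CRF), which are not analysed here. The animals' age and sex, the time of day at which they were killed, what the control animals were fed, and whether each sample came from a separate animal are not stated in these sources, so every standard deviation (SD) below measures the spread between these samples, part of which may be technical. The whole vessel was used, so the signal of a gene is a sum over all cell types of the wall and of any tissue attached to it. The tissue had been stored in RNAlater and frozen, and its RNA, purified on columns made for fibrous samples, was copied from the poly(A) tail, labelled with biotin and read on a rat array of Affymetrix in 1 colour. The 14217 genes with 1 probe set each were ranked by their mean log2 signal over the 6 arrays, and then by their SD.

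The aorta is an elastic artery. Its middle layer holds smooth muscle cells between sheets of elastin, its inner lining is endothelium, and its outer layer, the adventitia, holds fibroblasts, collagen, nerves and small vessels. Smooth muscle cells contract through actin and a smooth muscle myosin, and they also secrete most of the matrix that lets the vessel stretch and recoil. In rodents the thoracic aorta lies in fat that has features of brown adipose tissue, a heat-producing fat rich in mitochondria.

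The signals on the control arrays ran from 4.84 to 12.64 log2 units. Genes with a mean over 5.84, which is 1 unit above the lowest value, are called above the dim bound, and 8032 genes (56.5%) were. The correlation between pairs of arrays was 0.983 to 0.997 over the 31042 probe sets other than the manufacturer's controls, and no array repeated another array's values. Control 1 stood apart in the 3' to 5' differences of its control probe sets. Its GAPDH 3' probe set exceeded the 5' one by 1.58 log2 units, against 0.455 to 0.551 on the others. The same difference for actin on Control 1 was 3.159 against 2.321 to 2.634. Its spike-in controls were also the lowest, with a mean of 8.528 against 8.897 to 9.168. Control 3 had the most genes at least 0.5 log2 units from the 6-array median, 173, followed by Control 6 with 105, Control 1 with 104, Control 2 with 50, Control 5 with 13 and Control 4 with 10. For the genes with a high SD whose values turn on 1 array, that array's value is set beside those of the others.

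The highest signals came from transcripts of mitochondria, matrix, contractile filaments and ribosomes. COX2, the mitochondrially encoded subunit 2 of cytochrome c oxidase, had the highest mean, 12.40 ± 0.12 log2 units (SD, n = 6), with a lowest, median and highest array of 12.29, 12.35 and 12.61. It was followed by Igfbp7, a secreted protein that binds insulin-like growth factors, at 12.37 ± 0.05 (12.28, 12.38 and 12.40). Mgp, matrix Gla protein, which holds back calcification of the arterial wall, had a mean of 12.26 ± 0.10, and the actin-binding peptide gene Tmsb4x one of 12.21 ± 0.08. Tpm2, a tropomyosin of the thin filament, followed at 12.19 ± 0.11. Ccn2 and Ccn3, both matricellular proteins of the CCN family, had means of 12.16 ± 0.13 and 12.05 ± 0.09. Among neighbours in the order of the 30 highest means, 2 of 29 pairs differed by more than the larger of their SDs, so the order within the list is mostly within the spread between arrays. A signal depends on the probes as well as on the transcript, so the ranks order signals and not numbers of transcripts.

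**Figure D1:**
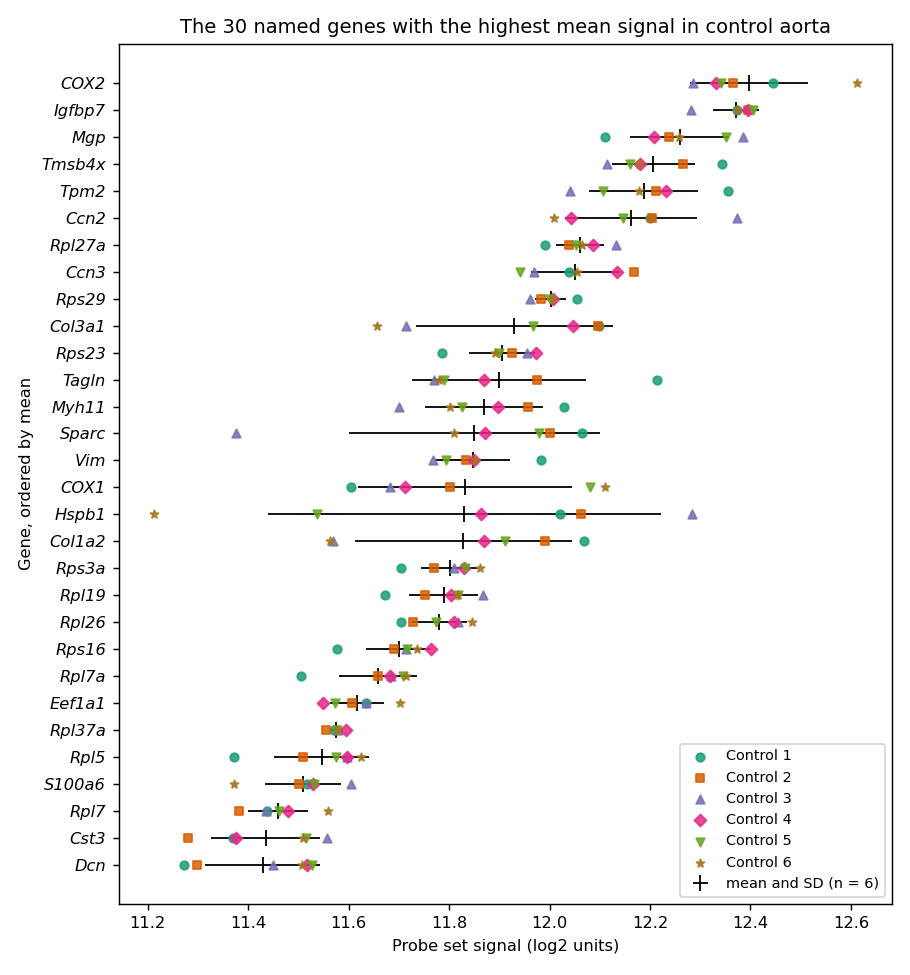
Signal of the 30 named genes with the highest means, on a log2 axis, with 1 point per control array, a tick at the mean and a line of 1 SD to each side. COX2 and Igfbp7 lead with means of 12.40 and 12.37, and most genes hold their 6 arrays close together, while Hspb1 runs from 11.21 to 12.28.

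Of the 100 genes with the highest means, 77 were among the 100 highest on all 6 arrays, and 36 carried symbols of ribosomal proteins. The gene at rank 100 had a mean of 10.55 and the next one 10.54, so the edge of this set is arbitrary. In all, 175 genes (1.23%) had a mean of at least 10, 64 of at least 11 and 9 of at least 12, while the median gene had a mean of 5.99.

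The smooth muscle markers were among the strong signals. Tagln, the actin-associated protein transgelin, had a mean of 11.90 ± 0.17 with a lowest, median and highest array of 11.77, 11.83 and 12.21. Myh11, the smooth muscle myosin heavy chain, had 11.87 ± 0.12 (11.70, 11.86 and 12.03). Acta2, smooth muscle alpha-actin, reached 10.45 ± 0.26 (10.17, 10.47 and 10.77), which put it at rank 112, with ranks on single arrays from 84 to 156. Eln, elastin, was lower and more spread, at 9.44 ± 0.64 (8.59, 9.39 and 10.55). Of 20 genes measured for the contractile apparatus, all 20 were above the dim bound, 13 had a mean of at least 10 and 10 were among the 100 highest means. Their median level was 10.539, against 5.99 over all genes.

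Matrix genes also held many of the high ranks. The fibrillar collagen genes Col3a1 and Col1a2 had means of 11.93 ± 0.20 and 11.83 ± 0.22, and Col1a1, the partner chain of Col1a2, had 10.03 ± 0.49. All 15 collagen genes measured were above the dim bound, with a median level of 8.742. Among proteoglycans and adhesive glycoproteins, 15 of 17 were above the bound and 7 were in the 100 highest means. They were led by Mgp, by Sparc, a collagen-binding glycoprotein, at 11.85 ± 0.25, and by decorin, Dcn, at 11.43 ± 0.11. Of 16 elastic fibre genes, 15 were above the bound, with a median level of 9.062. The highest of them were Mfap4, a microfibril-associated protein, at 10.24 ± 0.28, Lox, the enzyme that cross-links elastin and collagen, at 10.04 ± 0.35, and Fbn1, fibrillin of the microfibril, at 9.84 ± 0.20.

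Ribosomal protein genes held many of the other top ranks. Of 33 cytosolic ribosomal protein genes measured, 28 were in the 100 highest means, led by Rps29, which ran from 11.96 to 12.06, Rps23 at 11.91 ± 0.07 and Rps3a at 11.80 ± 0.06. Rpl27a, a further ribosomal protein gene outside that list, had 12.06 ± 0.05. All 25 respiratory chain genes were above the dim bound, with a median level of 9.061. Their highest members were Ndufa1 at 10.52 ± 0.09 and Ndufa4 at 9.98 ± 0.17, of which Ndufa1 is a subunit of complex I, and Cox6c at 10.36 ± 0.11, a subunit of cytochrome c oxidase. Of 15 glycolysis genes, 13 were above the bound, with a median level of 7.424, led by the aldolase gene Aldoa at 10.04 ± 0.23, the phosphoglycerate kinase gene Pgk1 at 9.51 ± 0.19 and Ldhb at 9.46 ± 0.20. For cholesterol synthesis 11 of 14 genes were above the bound, with a median of 6.31. Insig1, which restrains that pathway when sterols are plentiful, was its highest listed member at 7.94 ± 0.30. Interferon response genes had a median of 6.198 with 13 of 20 above the bound. Among these Ifi27 had the highest mean, 9.84 ± 0.31, followed by Bst2, an antiviral membrane protein, at 7.61 ± 0.19.

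Transcription factors of smooth muscle and of body position were detected in part. Of 33 smooth muscle and vascular factors, 21 were above the dim bound, with a median of 6.467. Zeb1, a zinc-finger repressor, had the highest mean at 8.73 ± 0.04, followed by Hey2, a Notch target, at 8.69 ± 0.18, and by Mef2a, Mef2c and Klf15, each at 8.43. Myocd, the myocardin coactivator that drives contractile genes with SRF, was at 7.17 ± 0.54 and ran from 6.38 on Control 6 to 7.90 on Control 2, with a median of 7.14. It was the 1 factor with an SD of at least 0.5, and its highest array was not Control 1, which had the highest mean of the contractile genes. Of 22 Hox genes, which keep a cell's position along the body axis, 7 were above the dim bound. The 5 highest were Hoxb2 at 7.06 ± 0.10, Hoxb3 at 6.74 ± 0.05, Hoxa5 at 6.66 ± 0.17, Hoxd8 at 6.57 ± 0.09 and Hoxc4 at 6.29 ± 0.05.

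Markers of other cell types were set against the dim bound, which 56.5% of all genes exceeded. A count near or under that share does not by itself show that a tissue contributed signal. In bulk samples fewer cells of a type and less RNA per cell cannot be told apart. Of 14 endothelial markers, 13 were above the dim bound, with a median of 6.384, and Ptprb, Pecam1 and Vwf led them at 7.67 ± 0.11, 7.58 ± 0.18 and 7.40 ± 0.17. Adventitial fibroblast markers had 11 of 12 above it and a median of 7.713, led by Gsn at 11.33 ± 0.13, Serpinf1 at 10.11 ± 0.12 and Mfap5 at 9.15 ± 0.15, of which gelsolin (Gsn) is also made by smooth muscle. Macrophage markers had 13 of 15 above it and a median of 6.984, with lysozyme, Lyz2, at 9.81 ± 0.17 and the complement genes C1qa and C1qc at 7.43 ± 0.14 and 7.41 ± 0.21. The lymphocyte and granulocyte lists were near the floor. They had 2 of 11 T cell markers above the bound (Cd3e at 6.49 ± 0.05 and Cd8a at 6.04 ± 0.03), and 0 of 5 for B cells, 0 of 6 for neutrophils and 0 of 10 for mast cells.

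Markers of fat, which surrounds the vessel, were mostly above the dim bound for white adipocytes and in part for brown ones. The share over all genes was 56.5%. Of 15 white adipocyte markers, 13 were above the dim bound, with a median of 7.558, led by the fatty acid binding protein gene Fabp4 at 10.37 ± 0.35, which capillary endothelium also makes, by Lpl at 8.94 ± 0.37 and by adipsin, Cfd, at 8.49 ± 0.40. Of 14 brown adipocyte markers, 7 were above it, with Cidea, a lipid droplet protein, at 9.16 ± 0.68, Ucp1, the uncoupling protein of brown fat, at 7.99 ± 0.80, and Prdm16, a regulator of brown fat identity, at 7.44 ± 0.37. Skeletal muscle had 5 of 19 above the bound, with the fast myosin gene Myh1 at 9.02 ± 0.28 and the sarcomeric actin gene Acta1 at 7.76 ± 0.37, and cardiac muscle 2 of 11, Myh6 at 7.26 ± 0.03 and Ryr2 at 6.55 ± 0.20. Schwann cell and nerve markers had 7 of 13 above it, led by the myelin gene Pmp22 at 9.26 ± 0.06, which fibroblasts also make. Erythroid markers had 2 of 7 (Hbb, a haemoglobin chain, at 8.78 ± 0.37), chondrocyte markers 5 of 11 (Cytl1 at 9.29 ± 0.16), lymph node and thymus stroma 2 of 5 (the chemokine gene Ccl21 at 7.23 ± 0.47) and mesothelium 1 of 7 (Krt18 at 5.91 ± 0.06).

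The list of genes from organs absent from the sample served as a gauge of the floor. Of its 22 members, 3 were above the dim bound, Ins1 at 6.15 ± 0.07, Cyp2e1 at 5.95 ± 0.40 and Ctrb1 at 5.90 ± 0.02, and the median was 5.337. A mean just over 5.84 therefore also occurred for an insulin gene. Among 4 sex-linked genes, the Y-linked Eif2s3y was at 7.21 to 7.35 and Uty at 6.21 to 6.61 on the 6 arrays, while Sry, the testis-determining gene, was at 5.30 to 5.42. Xist, named after its values were seen, was at 5.16 to 5.23. Sry and Xist were under the dim bound on all 6 arrays, and Eif2s3y and Uty above it on all 6.

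**Figure D2:**
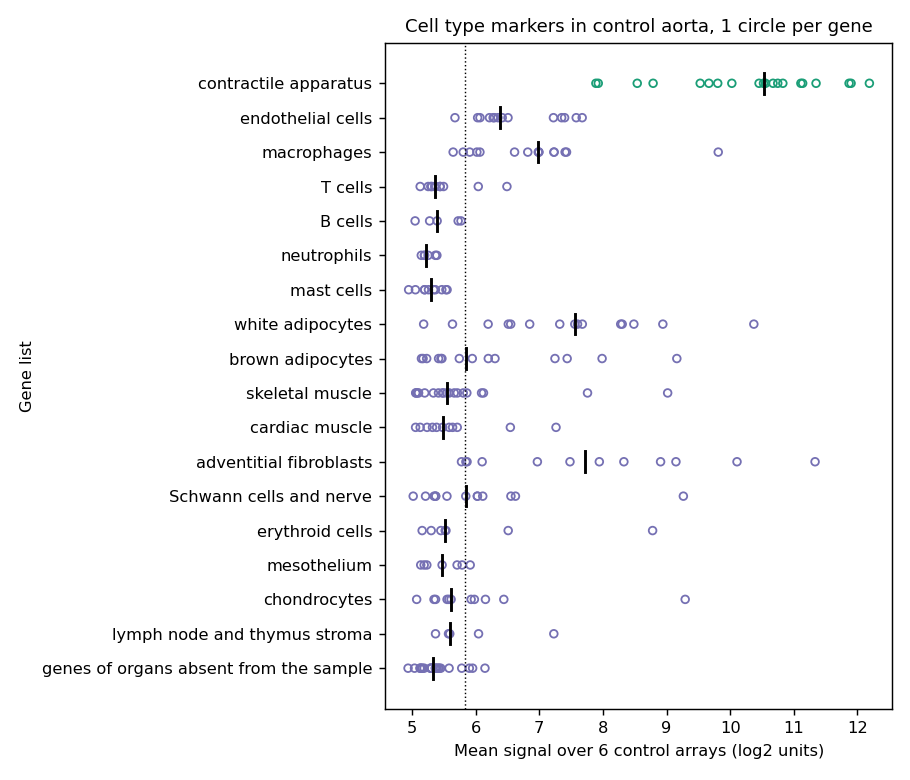
Mean signal over the 6 control arrays, in log2 units, of each gene in the contractile list and in 17 cell type lists, with 1 circle per gene, a bar at each list's median and a dotted line at 5.84. The contractile genes have a median of 10.539, the adventitial and white adipocyte lists medians of 7.713 and 7.558, and the list of genes from absent organs 5.337.

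Most genes varied little between the 6 arrays. The median SD was 0.063 log2 units, or 0.089 among genes above the dim bound, and 10608 genes (74.6%) had an SD under 0.1. The highest array exceeded the lowest at least 1.5-fold for 633 genes, at least 2-fold for 147 and at least 4-fold for 12. Among genes with a mean of at least 10, the ribosomal protein genes Rpl37a and Rps29 had the lowest SDs, 0.01 and 0.03. Rpl37a ran from 11.55 to 11.59. Ptges3, a co-chaperone of HSP90, was at 10.11 ± 0.03. The other 7 each had an SD of 0.04: Mrfap1, the Wnt inhibitor gene Frzb, the ribosomal genes Rpl41 and Rps24, the translation factor gene Eif4a2, thioredoxin (Txn1) and the lysosomal membrane gene Lamp1. Frzb was at 11.15 on Control 6 and at 11.05 to 11.08 on the others.

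An SD of at least 0.5 was reached by 47 genes (0.331%), and of at least 1.0 by 5. Of the 100 genes with the highest SDs, 97 were above the dim bound, their means ran from 5.53 to 10.66, and 1 was also among the 100 highest means, the gap junction gene Gja1, named here because it is the single overlap. Gja1 had 10.05, 10.53 and 11.33 as its lowest, median and highest array. The SD at rank 100 was 0.406 and the next was 0.405. The spread was not a matter of dim signals alone: the median SD was 0.036 for means under 5.5, 0.128 for means of 8 to 9, and 0.106 for means of at least 10.

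**Figure D3:**
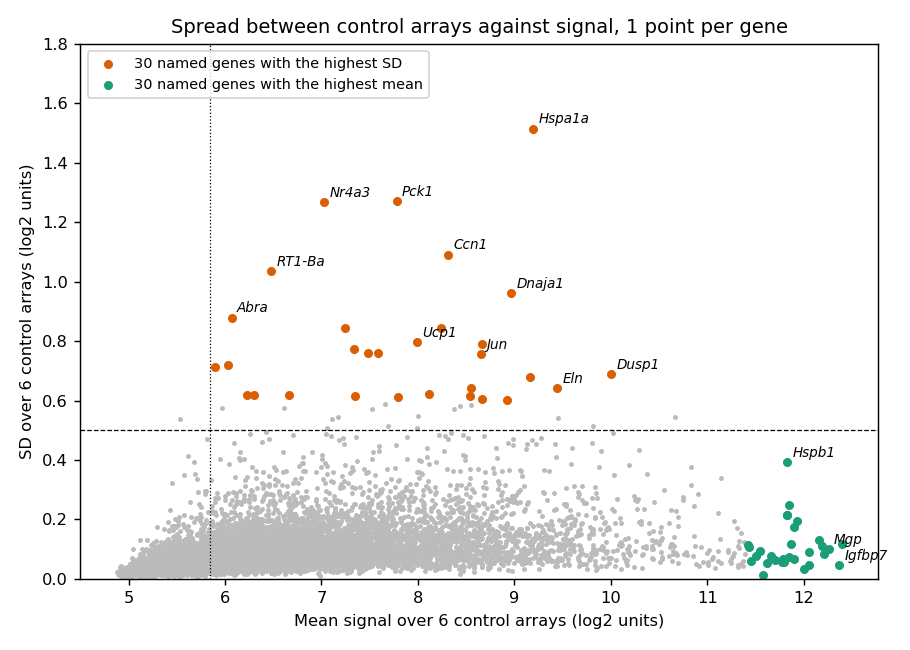
SD over the 6 control arrays against the mean signal, both in log2 units, with 1 point per gene and the 30 highest named means and SDs in colour. A dashed line marks an SD of 0.5 and a dotted line the dim bound of 5.84. The 30 most variable genes have means from 5.89 upward and none is among the 30 strongest signals, of which Hspb1 has the highest SD, 0.39.

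Control 3 and Control 6 were most often at the ends of the range. Control 3 was the highest array for 17 of the 30 named genes with the highest SDs, Control 2 for 6, Control 6 for 5, and Control 1 and Control 4 for 1 each. Control 6 was the lowest for 13 of the 30. Over the 100 highest SDs, Control 3 was highest for 46 and Control 6 lowest for 35, against 22.8% and 15.6% of the 8032 genes above the dim bound. Of the 47 genes with an SD of at least 0.5, 24 kept it without Control 3, against 40 to 47 without any other array.

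**Figure D4:**
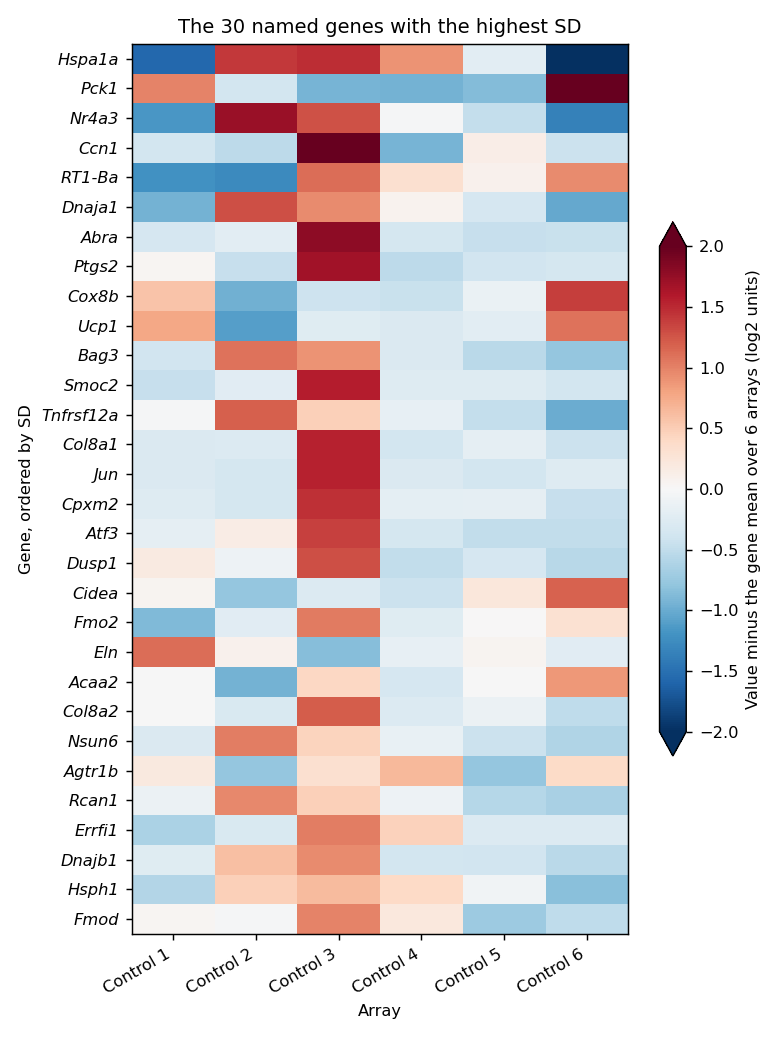
Signal on each control array of the 30 named genes with the highest SDs, as the colour-coded difference in log2 units from the gene's mean, with the colours ending at 2 units in either direction. Control 3 is highest for 17 genes and Control 6 lowest for 13, and Hspa1a, at the top, runs from 7.20 on Control 6 to 10.68 on Control 3.

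Among the 36 lists, heat shock genes had the highest median SD. Heat shock proteins are chaperones that refold or hold damaged proteins, and heat shock factor switches their genes on by binding repeats of the letters GAA and TTC. Hspa1a, an inducible HSP70, had the highest SD of all named genes, 1.52, with 7.63, 10.61, 10.68, 10.10, 8.98 and 7.20 log2 units on Control 1 to Control 6. The highest array exceeded the lowest 11.2-fold, and Control 2, 3 and 4 were high while Control 1 and 6 were low. Dnaja1, an HSP40 co-chaperone, was also high on Control 2 and 3 and low on Control 1 and 6, at 8.03, 10.26, 9.92, 9.04, 8.63 and 7.95. Bag3, a co-chaperone of HSP70 that helps clear damaged filament proteins, was high on Control 2 and 3, at 9.76 and 9.56, and at 7.89 to 8.37 on the other 4. Hsph1, an HSP110, ran from 7.82 on Control 6 to 9.29 on Control 3, with a median of 8.82. Dnajb1, another HSP40, ran from 7.25 on Control 6 to 8.73 on Control 3, with a median of 7.49.

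The small heat shock proteins were strong on every array and less spread. Hspb1, which stabilises actin filaments, was at 11.83 ± 0.39 (11.21, 11.94 and 12.28), and Cryab at 10.30 ± 0.43 (9.80, 10.38 and 10.79). Hsp90ab1, a constitutive HSP90, was at 9.88 ± 0.38 (9.47, 9.86 and 10.46). All 13 genes measured in this list were above the dim bound, 9 were highest on Control 3 and 3 on Control 2, and 9 were lowest on Control 6. Among all genes above that bound, these shares were 22.8%, 10.7% and 15.6%. The list's mean was 9.71 on Control 3, 9.62 on Control 2, 9.24 on Control 4, 8.96 on Control 5, 8.89 on Control 1 and 8.62 on Control 6. Its median SD was 0.391, against 0.089 for all genes above the dim bound, and 5 of the 13 had an SD of at least 0.5, against 0.331% of all genes. The lists were chosen with earlier results of these data known, so these values describe the list and do not test it. A 2nd probe set of Dnaja1, which the ranking did not use, ran from 7.25 on Control 6 to 9.26 on Control 2, with the same arrays at both ends. Those of Hsph1 and Dnajb1 were also highest on Control 3 but lowest on Control 1, at 6.31 and 5.92, and not on Control 6.

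Promoters are shown for the chaperone genes named above in which a match to the motif GAANNTTC was found. Hspa1a had no promoter in the set searched, and Cryab and Hsp90ab1 held no match. Each line gives the 250 bases before the transcription start in RefSeq on the GRCr8 assembly, 5' to 3' on the gene's strand, with matches to GAANNTTC in capitals. The windows lie at chr5:60638154-60638403 on the plus strand for Dnaja1, chr1:192533210-192533459 on the plus strand for Bag3, chr12:10427118-10427367 on the plus strand for Hsph1, chr19:41431142-41431391 on the minus strand for Dnajb1, and chr12:26432302-26432551 on the minus strand for Hspb1. Hspe1, a mitochondrial chaperonin of low spread, with an SD of 0.08, is shown for contrast, from chr9:64084077-64084326 on the plus strand. It was named after its values were seen.
Dnaja1: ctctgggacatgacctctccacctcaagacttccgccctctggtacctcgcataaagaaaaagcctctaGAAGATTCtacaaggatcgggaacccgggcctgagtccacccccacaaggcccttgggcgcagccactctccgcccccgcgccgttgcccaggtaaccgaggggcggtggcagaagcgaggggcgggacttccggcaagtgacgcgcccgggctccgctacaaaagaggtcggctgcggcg
Bag3: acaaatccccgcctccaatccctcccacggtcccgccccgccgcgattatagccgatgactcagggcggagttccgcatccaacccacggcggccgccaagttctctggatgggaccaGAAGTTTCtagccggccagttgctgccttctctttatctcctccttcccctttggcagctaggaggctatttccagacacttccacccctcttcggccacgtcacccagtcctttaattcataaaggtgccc
Hsph1: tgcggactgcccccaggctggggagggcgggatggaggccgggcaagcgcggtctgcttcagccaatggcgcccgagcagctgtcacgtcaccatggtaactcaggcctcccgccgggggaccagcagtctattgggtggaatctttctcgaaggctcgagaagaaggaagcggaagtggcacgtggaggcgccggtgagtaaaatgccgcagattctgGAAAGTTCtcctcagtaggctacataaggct
Dnajb1: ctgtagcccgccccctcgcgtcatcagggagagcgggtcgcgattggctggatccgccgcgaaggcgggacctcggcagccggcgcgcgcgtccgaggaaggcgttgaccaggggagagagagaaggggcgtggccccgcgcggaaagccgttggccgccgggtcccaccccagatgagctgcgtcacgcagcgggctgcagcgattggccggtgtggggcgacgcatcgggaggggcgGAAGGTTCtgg
Hspb1: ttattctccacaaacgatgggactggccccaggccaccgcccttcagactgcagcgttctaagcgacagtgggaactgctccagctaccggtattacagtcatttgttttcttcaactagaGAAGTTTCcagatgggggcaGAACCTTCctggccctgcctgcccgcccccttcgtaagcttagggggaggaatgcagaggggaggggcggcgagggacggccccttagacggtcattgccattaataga
Hspe1: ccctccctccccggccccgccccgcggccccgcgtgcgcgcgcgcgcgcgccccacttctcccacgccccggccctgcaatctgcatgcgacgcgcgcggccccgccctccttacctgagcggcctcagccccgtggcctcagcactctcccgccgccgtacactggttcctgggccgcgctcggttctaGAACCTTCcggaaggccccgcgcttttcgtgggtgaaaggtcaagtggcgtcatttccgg
GAANNTTC, in which N is any base, reads the same on both strands. It was chosen after the spread of these genes was known. Heat shock factor binds such repeats, so a high share among heat shock genes could be foreseen. The shares below describe the promoters only, and the part of the motif in the spread was not tested. The first base of the match lies 181 bases before the start in Dnaja1, 132 in Bag3, 31 in Hsph1, 11 in Dnajb1 and 60 in Hspe1, and Hspb1 has 2 matches, at 129 and 109. Of 12 listed heat shock genes with a promoter in the table, 8 (66.7%) held it, against 1928 of 27457 promoters (7.0%), 583 of 11733 measured genes (5.0%) and 12 of 81 of the 100 genes with the highest SDs (14.8%). A longer form, GAANNTTC followed by 2 bases and a further GAA, was searched on both strands and holds the shorter motif. It was in 3 of the 12 (25.0%) and in 164 of all promoters (0.6%). Hspe1 holds both motifs. Its window overlaps that of Hspd1, which is transcribed the other way. The matches of Hspe1 and Hspd1 are the same site, which the counts above include once for each gene.

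A further set of genes was high on Control 3 alone. Jun, a subunit of the AP-1 transcription factor, was at 10.19 on Control 3 and at 8.29 to 8.40 on the other 5 arrays, so its SD of 0.76 was 0.05 without Control 3. Ccn1, a matricellular immediate early gene, was at 10.43 on Control 3 and 7.39 to 8.45 elsewhere. Ptgs2, the inducible cyclooxygenase, was at 9.91 against 7.72 to 8.29. Dusp1, a phosphatase that turns off MAP kinases, was at 11.29 against 9.45 to 10.18. Atf3, a stress-induced transcription factor, was at 7.26 against 5.40 to 6.04, and Abra, an actin-binding protein of muscle, at 7.85 against 5.61 to 5.85. The other 2 probe sets of Jun were also highest on Control 3, at 9.74 and 8.70, against at most 8.28 and 7.08 on the other arrays.

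Not every immediate early gene followed Control 3. Nr4a3, an orphan nuclear receptor induced by many stimuli, had 5.86, 8.75, 8.31, 7.01, 6.56 and 5.68 on Control 1 to Control 6, with an SD of 1.27, and its lowest array was under the dim bound. Its order of arrays was near that of Dnaja1, with Control 2 and 3 high and Control 1 and 6 low. A further probe set of Nr4a3 above the dim bound gave 5.62, 6.45 and 8.34 as lowest, median and highest, on the same arrays. Tnfrsf12a, the TWEAK receptor, and Rcan1, an inhibitor of calcineurin, were also highest on Control 2, at 8.68 and 8.30, and lowest on Control 6, at 6.49 and 6.70. Jund, a constitutive AP-1 subunit, was less spread at 9.67 ± 0.28. Of 19 immediate early genes measured, 12 were above the dim bound, against 56.5% of all genes. Control 3 was the highest array for 9 and Control 2 for 6, against 22.8% and 10.7% of the genes above that bound. An SD of at least 0.5 was reached by 5, against 0.331% of all genes. Their list mean was 7.14 on Control 3, 6.75 on Control 2 and 6.42 to 6.58 on the other 4.

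Several matrix and tendon genes were likewise higher on Control 3 than on the others. Col8a1 and Col8a2, which encode the network-forming collagen VIII, were at 9.13 and 7.87 there, against at most 7.41 and 6.65 on the other 5 arrays. Smoc2, a matricellular calcium-binding protein, was at 8.91 against 6.88 to 7.11, and Cpxm2, a carboxypeptidase-like protein, at 7.49 against 5.57 to 5.85. Comp, cartilage oligomeric matrix protein, was at 7.01 against 5.83 to 6.07, and Fmod, the collagen-binding fibromodulin, at 9.92 against 8.21 to 9.14. The fibroblast genes Dpt and Pcolce were at 9.52 and 8.16 on Control 3, with highest values of 8.95 and 7.51 elsewhere. Other matrix genes were lowest there: Sparc at 11.38 against 11.81 to 12.06, Lox at 9.54 against 9.77 to 10.41, and Eln at 8.59 against 9.21 to 10.55. Of 16 elastic fibre genes, 10 were lowest on Control 3 and 8 were highest on Control 1. The shares of all genes above the dim bound were 19.3% and 27.2%. Of the 12 adventitial fibroblast markers, 5 were highest on Control 3 and 4 were lowest there, against 22.8% and 19.3% of the genes above the dim bound. Gsn, at 11.13, and Mfap5, at 8.88, were among those lowest there. An SD of at least 0.3 was reached by 2 of the 12, and the list's mean ran from 7.76 to 7.92 over the arrays. Of 11 chondrocyte markers, 6 were not above the dim bound, and the list's mean ran from 5.98 to 6.16. The part of any attached tissue in these values was not tested.

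Several genes of brown fat and fat metabolism varied in another pattern, with Control 6 high. Ucp1 was at 8.75, 6.88, 7.74, 7.70, 7.78 and 9.07 on Control 1 to Control 6, so Control 1 and 6 were high and Control 2 low. Cox8b, a cytochrome oxidase subunit of brown fat and striated muscle, ran from 6.28 on Control 2 to 8.63 on Control 6, with a median of 6.98. Cidea ran from 8.39 on Control 2 to 10.35 on Control 6, with a median of 9.06. Pck1, the cytosolic PEP carboxykinase used for glycerol and glucose synthesis, was at 9.89 on Control 6, 8.78 on Control 1 and 6.83 to 7.41 on the other 4, an SD of 1.27. Acaa2, a thiolase of mitochondrial fat oxidation, ran from 7.18 on Control 2 to 8.99 on Control 6, with a median of 8.11. Without Control 6 the SDs of Ucp1, Cox8b, Cidea and Pck1 were 0.66, 0.56, 0.40 and 0.83.

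The lists behind these genes had the same arrays at their ends. Of 25 respiratory chain genes, 23 were highest on Control 6 and 19 lowest on Control 2. The shares of all genes above the dim bound were 17.5% and 32.1%. The respiratory chain mean was 9.33 on Control 6 and 8.88 on Control 2. Of 17 fatty acid oxidation genes, 14 were above the dim bound, 13 were highest on Control 6 and 9 lowest on Control 2, with list means of 7.31 and 6.77. Acadl and Acadm, dehydrogenases of the first step, were at 9.91 ± 0.21 and 8.67 ± 0.31, and Hadhb, of the trifunctional protein, at 8.87 ± 0.36. Of 15 white adipocyte markers, 10 were highest on Control 6, and the list's mean ran from 7.23 on Control 2 to 7.82 on Control 6. Fabp4 was at 11.02 on Control 6 and at most 10.42 elsewhere. The brown adipocyte mean ran from 6.02 on Control 2 to 6.63 on Control 6, with Control 1 at 6.47. At or under the dim bound were 7 of its 14 markers. Of the 14, 6 were highest on Control 6, 5 on Control 1, 2 on Control 2 and 1 on Control 3. Control 6 was the lowest array for 2 of them. Prdm16 was highest on Control 1, at 7.96, against 7.76 on Control 6. The fat marker means therefore shared their highest and lowest arrays with the respiratory chain and oxidation means. On Control 1 and 3 the white adipocyte mean was -0.031 and 0.073 from its mean over the arrays. The respiratory chain mean was 0.083 and -0.077 from its own. Cpt1b is in both the brown adipocyte and the oxidation lists, so these 2 lists are not independent. The part of fat in those values was not tested.

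Fat synthesis and glycolysis followed only in part. Of 16 fatty acid synthesis genes, 13 were above the dim bound and 10 were lowest on Control 2, but 7 were highest on Control 3 and 5 on Control 6. For all genes above that bound, the shares at these ends were 32.1%, 22.8% and 17.5%. Scd, the stearoyl-CoA desaturase, ran from 9.07 on Control 5 to 10.37 on Control 3, with a median of 9.90. Fasn, fatty acid synthase, was at 9.31 ± 0.29, and Thrsp, a lipogenic factor, at 9.62 ± 0.31. Of 15 glycolysis genes, 10 were highest on Control 1, against 27.2% of the genes above the dim bound. The list means of cholesterol synthesis ran from 6.39 on Control 4 to 6.61 on Control 3, and those of the interferon response from 6.23 on Control 5 to 6.40 on Control 6.

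The clock genes Dbp, Nr1d2 and Per2 had their lowest values on Control 1 and 6. The circadian clock is a feedback loop of transcription factors that runs in most tissues, the aorta included. Dbp, a clock-driven transcription factor, was at 5.79 and 5.99 on Control 1 and 6 and at 6.75 to 7.13 on the other 4. Nr1d2, the repressor REV-ERB beta, was at 6.67 and 6.94 against 7.79 to 8.03, and Per2, a core repressor of the loop, at 7.56 and 7.86 against 8.20 to 8.41. This split was picked from the values themselves, and the share of all genes that have it was not counted. It was not particular to clock genes. Hspa1a and Dnaja1 also had their lowest values on Control 1 and 6, and Pck1 and Ucp1 their highest. Of a further 2 probe sets of Nr1d2, the 1 above the dim bound had the same pattern, with 5.90 and 6.18 on Control 1 and 6 against 6.79 to 6.90. Clock itself, which keeps a flat level in many tissues, was at 7.07 ± 0.13. Of 17 clock genes, 16 were above the bound, 9 were lowest on Control 1 and 1 on Control 6, and 9 were highest on Control 3 and 4, Clock among them, on Control 1.

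Genes known to respond to glucocorticoids had their highest list mean on Control 3. Of 12 measured, 11 were above the dim bound, 5 were highest on Control 3, 3 on Control 4, 2 on Control 6 and 1 each on Control 1 and 2. Among all genes above that bound, 22.8%, 10.9%, 17.5%, 27.2% and 10.7% were highest on Control 3, 4, 6, 1 and 2. The list's mean ran from 7.29 on Control 5 to 7.73 on Control 3. Tsc22d3, the leucine zipper protein GILZ, was at 9.35 on Control 3, 8.81 on Control 4 and 8.15 to 8.34 on the other 4. Fkbp5, a co-chaperone of steroid receptors, ran from 6.46 on Control 1 to 7.72 on Control 3, with a median of 7.05. Klf9 was at 9.93 to 10.02 on Control 2, 3 and 4 and at 9.40 to 9.45 on Control 1, 5 and 6, so the arrays fell into separate ranges. Pdk4, a kinase that shuts off pyruvate oxidation, was highest on Control 6, at 8.56, and lowest on Control 2, at 7.05.

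**Figure D5:**
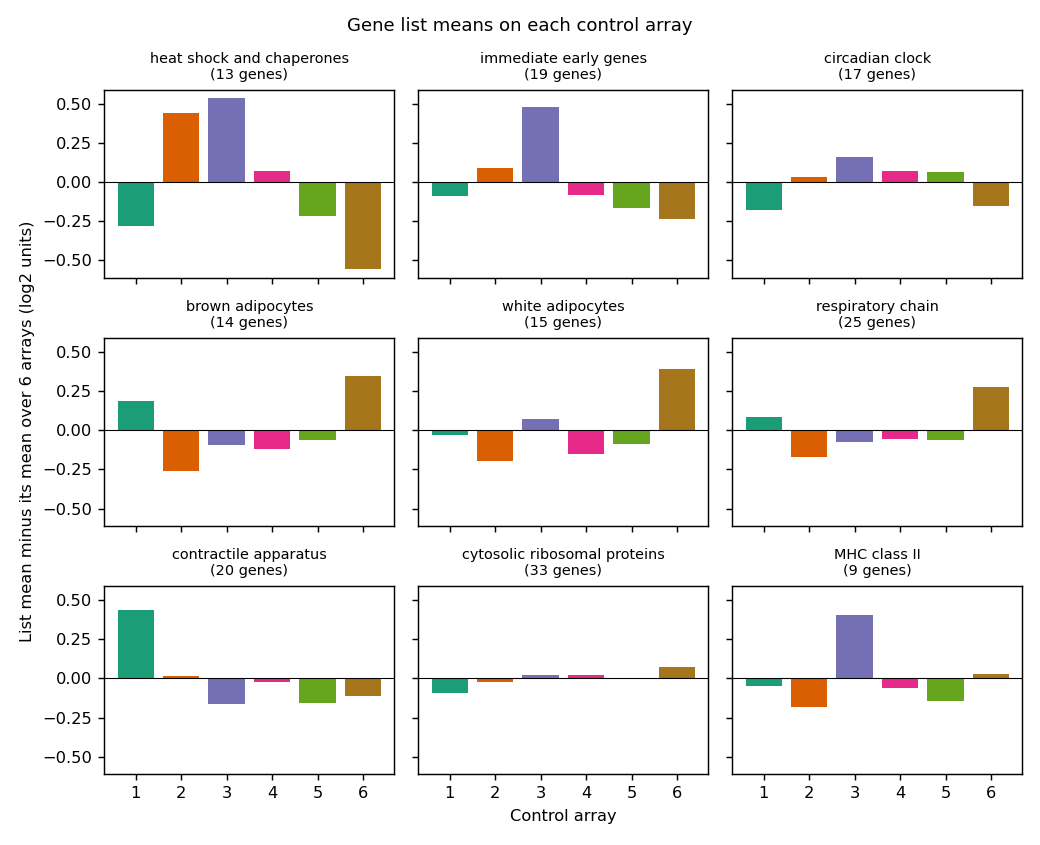
Mean signal of gene lists on each control array, as bars of the difference in log2 units from the list's mean over the 6 arrays. Heat shock genes have 0.54 and 0.44 on Control 3 and 2 and -0.56 on Control 6, contractile genes 0.44 on Control 1, and white and brown adipocyte markers 0.39 and 0.35 on Control 6.

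MHC class II genes, which present antigen to T cells, did not all follow one pattern. Of 9 measured, 5 were highest on Control 3, 3 on Control 1 and 1 on Control 2. For all genes above the dim bound these shares were 22.8%, 27.2% and 10.7%. Cd74, the invariant chain, was at 9.68 on Control 3 and 8.51 to 8.84 elsewhere, and RT1-Da, an alpha chain, at 8.84 against 7.56 to 7.85. Without Control 3 their SDs were 0.13 and 0.12. Ctss, a protease that processes the invariant chain, was lowest on Control 3, at 7.73 against 7.90 to 8.04. RT1-Ba, another alpha chain, was at 5.27, 5.21, 7.60, 6.81, 6.57 and 7.43 on Control 1 to Control 6, with Control 1 and 2 below the dim bound and the other 4 above it. The other 3 probe sets annotated to RT1-Ba did not share this split: 1 of them was highest on Control 3, at 7.01, and lowest on Control 6, at 5.82, and the other 2 were highest on Control 2 and lowest on Control 3. Class II genes resemble one another in sequence, so which of them a probe set reads is uncertain. Of 9 class II genes, 8 were above the bound, and the list's mean was 7.51 on Control 3 and 6.92 to 7.13 on the others. The macrophage list had its lowest mean on Control 3, at 6.75, against a highest of 6.94. Of its 15 markers, 11 were lowest on Control 3, against 19.3% of the genes above the dim bound.

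Agtr1b, an angiotensin II receptor of the type that constricts vessels, also had separate levels. It was at 5.45 and 5.46 on Control 2 and 5, under the dim bound, and at 6.42 to 6.87 on the other 4, an SD of 0.62. Fmo2, a flavin monooxygenase, ran from 7.66 on Control 1 to 9.59 on Control 3, with a median of 8.44. Errfi1, a feedback inhibitor of the EGF receptor, ran from 7.91 on Control 1 to 9.56 on Control 3, with a median of 8.27. Nsun6, an RNA methyltransferase, ran from 5.70 on Control 6 to 7.33 on Control 2, with a median of 6.08.

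Control 1 had the highest contractile signals and the lowest ribosomal ones. Of 20 contractile genes, 19 were highest there, against 27.2% of the genes above the dim bound. The list's mean was 10.72 on Control 1 and 10.11 to 10.29 on the others. Smtn, smoothelin, was at 8.70 against 7.66 to 7.85, and its SD of 0.40 was 0.08 without Control 1. Actg2, gamma smooth muscle actin, was at 10.67 against 9.44 to 9.89. Collagen genes had the same array at the top for 10 of 15, with list means from 8.44 on Control 6 to 8.96 on Control 1. Of 33 ribosomal genes, 19 were lowest on Control 1, with list means from 10.63 there to 10.80 on Control 6. The 3' to 5' differences of the GAPDH and actin controls were also highest on Control 1, and their part in these values was not tested.

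Other probe sets of Eln and Myh11 did not repeat the pattern of Control 1. Eln was highest on Control 1, at 10.55, by the ranked probe set, and lowest there, at 7.26, by its other probe set, which reached 9.19 on Control 5. Myh11 was likewise highest on Control 1 by the ranked probe set, at 12.03, and lowest there by another, at 6.16 against 6.51 to 6.97. Another probe set of Col1a1 did have the same ends as the ranked one, with 10.3 on Control 1 and 9.08 on Control 6. Without Control 1 the SD of Eln was 0.38. Across the 100 highest SDs, 38 genes had 53 other probe sets, of which 32, for 26 genes, were above the dim bound. Of these 32, 24 had the same highest array as the ranked probe set, 16 the same lowest and 12 both, and their median SD was 0.417.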

How the data were processed

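Thoracic aorta RNA of 14 Sprague-Dawley rat samples was measured on 1-colour Affymetrix arrays, of which the 6 Control arrays were used here. Each array's deposited values, 1 per probe set, were taken as log2 signals. The submitters' processing notes name PLIER, which summarises the probes of a probe set, with no version. How background and arrays were corrected, and whether an offset was added, is not given in the sources used here. A base of 2 was inferred from the values' range. An offset would compress differences between dim values.

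Of 31099 probe sets, the manufacturer's 57 controls were dropped. Platform annotation gave 1 symbol for 20826 of the remaining 31042 probe sets, several for 436 and none for 9780. Of the 20826, 20758 were found in RefSeq by Entrez identifier, and 0 symbols differed. The probe set with the highest control mean stood for each of 14217 genes, 4525 of which had more than 1. Mean, SD, range and the arrays at both ends were computed with Python 3.11.15, pandas 2.3.3 and numpy 2.4.6, and checked on simulated data. With 1 group there was no test. Replicates were numbered in accession order, and the number of arrays limits the precision of each SD.

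Named were the 30 highest means and SDs, the 10 lowest SDs among means of at least 10, Acta2, Myh11, Tagln and Eln, from each of 36 lists (18 of gene groups, 18 of markers) up to 3 members by mean and 2 by SD, and 5 by mean for transcription factors and Hox genes, 197 genes in all. Symbols of predicted genes, microRNAs and numbered pseudogenes were passed over. Members and lists were chosen with earlier results of these data known. Alternatives were an offset of 16, quantile normalization, median centring, averaging the probe sets of each gene, dropping those of several transcripts or below the 40th percentile, other measures of spread, and leaving out each array.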

Additional observations from a re-analysis of the deposited data

Results flagged for a closer look

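The values here are the gap between the highest or lowest array and its nearest neighbour, as a share of the 6 arrays' whole range, where that share exceeded Dixon's 95% critical value for 6 samples. Chance alone gives about 1 in 20. Over all genes 1151 (8.1%) exceeded it, as did 31 of the 100 highest SDs, 25 of the 197 named genes and 2 of 36 list means. A single distant array raises both this share and the SD. The excess among genes chosen by their SD, some of the named genes included, is therefore partly built in.

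Control 3 stood apart for 18 of the 25 named genes. It was highest for the AP-1 gene Jun (0.942), for the actin-binding protein gene Abra (0.892), for Ptgs2 (0.743), Atf3 (0.655) and Ccn1 (0.65), which are induced early after a stimulus, and for the matrix genes Smoc2 (0.886), Col8a1 (0.874), Cpxm2 (0.855), Comp (0.791), Col8a2 (0.707), Dpt (0.64) and Pcolce (0.639). It was also highest for the class II genes RT1-Da (0.772) and Cd74 (0.719), for the mean of the MHC class II list (0.646) and for the ribosomal gene Rpl41 (0.806). It was lowest for Igfbp7 (0.746), Krt18 (0.722) and Sparc (0.63).

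Control 1 stood apart in the GAPDH 3' minus 5' difference (0.915), and it was highest for the contractile genes Smtn (0.82) and Actg2 (0.629) and for the mean of the contractile list (0.703), and lowest for the ribosomal genes Rpl7a (0.737) and Rpl14 (0.732). The Wnt inhibitor gene Frzb was highest on Control 6 (0.731), the chemokine gene Ccl19 on Control 5 (0.685) and Ins1, an insulin gene near the floor, on Control 2 (0.642). The cause of these gaps was not tested.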

How the results depend on the processing

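The counts of genes with a mean of at least 10 (175) and of the 100 highest means found again (100) were 122 to 179 and 72 to 100 under the 6 other settings, lowest when a gene's probe sets were averaged. Leaving out 1 array gave 171 to 176 and 98 to 100. The count of genes with an SD of at least 0.5 (47) was 35 to 47 under those 6 settings, 32 to 69 with 1 array left out, lowest without Control 3, and 27 by the scaled median absolute deviation. Of the 100 highest SDs, 78 to 100 were found again under the 6 settings, 68 by the residual from genes of like mean, 47 by the median absolute deviation, and 62 to 96 with 1 array left out, of which 62 without Control 3. The median absolute deviation gives little weight to a single distant array by its construction. Of the 197 named genes' SDs, 41 moved without Control 3 by more than the approximate standard error of an SD over 6 values, 23 without Control 1 and 21 without Control 6. No direction reversed, since no difference between groups was computed. A dim signal sets a lower limit, and genes under 5.84 have no order here. No paired analysis was possible because 1 group was described and the labels carry no shared numbers.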

Other observations

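Probe sets with no gene symbol or several were outside the ranking. Of those with no symbol, 30 had a mean of at least 10 log2 units over the 6 control arrays and 15 had an SD of at least 0.5. Strong and variable signals therefore also occur among probe sets that are unnamed here. Those with several symbols were not counted in this way.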
